A study of Homo sapiens with 24 samples.

Results

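The comparison set cells treated with SP600125 against cells given its solvent DMSO, in a derivative of the colon cancer line SW480 that is labelled BOP1. Its members are 4 of the 24 arrays of the series, chosen by the group in the sample titles, and the 12141 genes whose probe was above background on at least 2 of the 24 arrays. The group BOP1_SP600125 held 2 arrays of SW480 cells infected with a BOP1 pBABE-puro retrovirus and kept for 24 h in 33.3 nM SP600125. Its control, BOP1_DMSO, held 2 arrays of the same infected cells kept for 24 h in solvent. Also used were 2 arrays of these cells in 667 nM DAPT and 2 in 3.3 µM LY294002, each for 24 h. The other 16 arrays helped to estimate the spread. Of these, 2 arrays of the SW480 control line, kept for 24 h in DMSO, were also compared for the level of BOP1. Apart from this control line, all cells compared carried the same retroviral construct. How many clones the stable line came from is not stated in the labels. The labels describe the arrays of a group as biological replicates without saying whether they came from separate cultures, so p-values measure the spread between these samples.

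SP600125 is an ATP-competitive inhibitor of the c-Jun N-terminal kinases (JNKs), which are switched on by stress and cytokines through the kinases MKK4 and MKK7. JNKs phosphorylate c-Jun and related proteins of the AP-1 complex, a dimer of JUN, FOS and ATF family members that binds DNA and drives growth, invasion and stress genes in colon cancer cells. SP600125 is an anthrapyrazolone, and it is also known as a ligand of the aryl hydrocarbon receptor, whose classical target genes are the cytochromes CYP1A1 and CYP1B1 and the ADP-ribosyltransferase TIPARP. DAPT inhibits gamma-secretase, which activates Notch, and LY294002 inhibits phosphoinositide 3-kinases.

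Levels are bead-array intensities, corrected for background, quantile normalized and put on a log2 scale, so that a difference of 1 is a doubling. They can be compared between arrays for 1 gene but not between genes. The 2 SP600125 arrays had mean raw signals of 1087 and 1174 and 18661 and 18584 detected probes, against 1146 and 1297 and 19666 and 19068 on the DMSO arrays. Over all 24 arrays the mean raw signal lay between 971 and 1366. All 7 measured colon epithelium markers were detected on all 4 arrays, with a summed signal of 59655 to 74562 under SP600125 and 74934 to 78629 in DMSO. Markers of other cells were scarce: 5 of 12 leukocyte, 3 of 10 fibroblast, 1 of 9 endothelial and 3 of 8 hepatocyte markers entered the test. Summed over its measured genes, the leukocyte list gave 545 to 566 under SP600125 and 542 to 582 in DMSO. BOP1, a ribosome biogenesis factor and the gene the line is named after, had log2 levels of 12.96 and 12.78 on the SP600125 arrays and 12.89 and 12.89 on the DMSO arrays. Its probe went against the label of the line: 12.89 and 12.89 in the BOP1 line in DMSO, against 13.53 and 13.38 in the control line in DMSO, a difference of -0.56 (SE 0.09, limma adjusted p = 0.000971). Whether this probe can see the retroviral transcript was not tested, and the cells are called the line labelled BOP1 here.

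SP600125 gave small differences. Of 12141 genes, 0 passed an adjusted p of 0.05 in limma (0% called), and the smallest adjusted p was 0.148. At an unadjusted p under 0.05 there were 1424 genes (11.7%), of which 614 (5.06%) were higher and 810 (6.67%) were lower with SP600125. With a median shift per array in place of quantile normalization, 433 of 1360 such genes were higher. The count of called genes was 5 without background correction, 4 with array weights and 20 with a variance that depends on intensity, and GPX1, DNPEP, MOV10 and C18orf32 were among them each time. The 2 SP600125 arrays both lay above both DMSO arrays for 2743 genes (22.6%) and below both for 2902 genes (23.9%).

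The sizes and their errors bound what the treatment did. The median difference was -0.0035 and the median size, without sign, was 0.12 on the log2 scale, near the median standard error of 0.13. In size, 95% of genes differed by less than 0.42 and 99% by less than 0.62. More than 1.5-fold differences were seen for 72 genes higher and 91 lower with SP600125, and more than 2-fold for 0 higher and 1 lower. The 95% interval of the difference lay wholly within 1.5-fold in either direction for 9362 genes (77.1%) and within 2-fold for 11830 genes (97.4%). The gene past 2-fold was ZNF264, a zinc finger gene, named here after its value was seen. It was not well above background on either SP600125 array (4.98 and 4.40) and detected on both DMSO arrays (6.52 and 6.71), which gives a level at least 1.41-fold lower with SP600125 (limma adjusted p = 0.223).

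**Figure D1:**
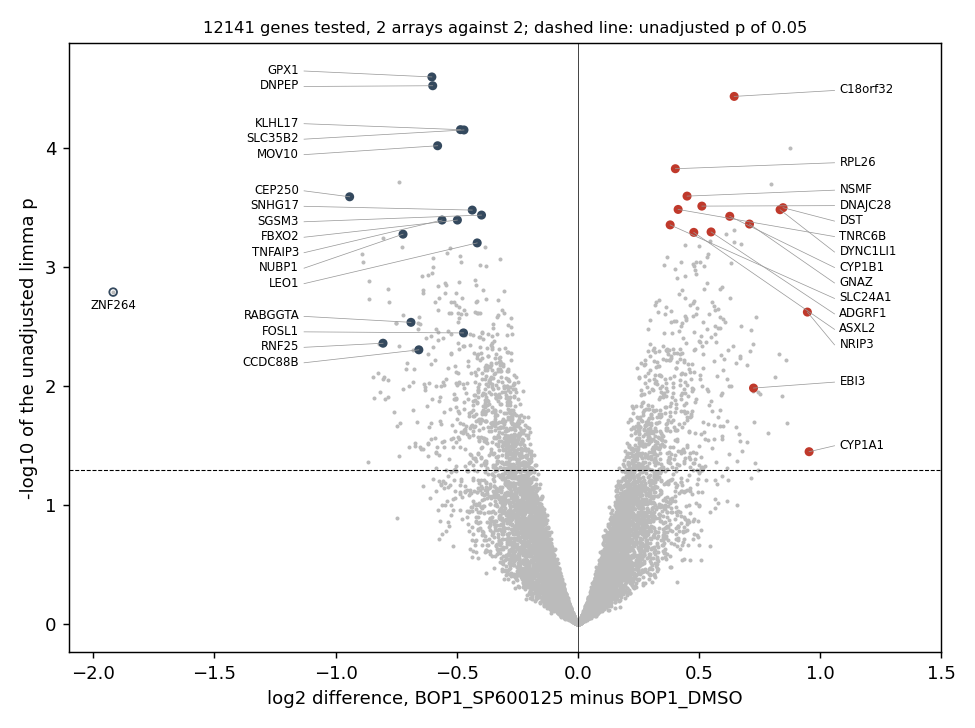
Each point is 1 of 12141 genes, with the log2 difference of BOP1_SP600125 minus BOP1_DMSO on the x axis and the -log10 of the unadjusted limma p on the y axis. Filled labelled genes were detected on all 4 arrays; the open circle is ZNF264, not well above background with SP600125. GPX1 and DNPEP stand at the top of the lower genes and C18orf32 at the top of the higher ones, all with an adjusted p of 0.148.

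GPX1 and DNPEP had the smallest p-values of all genes, and both were lower with SP600125. GPX1, the cytosolic glutathione peroxidase that reduces hydrogen peroxide and holds a selenocysteine, had levels of 12.73 and 12.70 on the SP600125 arrays, against 13.32 and 13.31 on the DMSO arrays. The 2 groups were about 0.6 apart while replicates differed in the second decimal. The fitted difference was -0.60 (SE 0.10, 95% interval -0.82 to -0.38, limma adjusted p = 0.148), or 0.659 times the DMSO level, which ranks 1 by p and 135 by size. It rests on 1 probe, since the other GPX1 probe was not above background on any of the 4 arrays. DNPEP, an aminopeptidase that removes N-terminal acidic residues, read 9.20 and 9.02 with SP600125, against 9.69 and 9.72 in DMSO. Its groups did not overlap, and its difference of -0.60 (SE 0.11, adjusted p = 0.148) ranks 2 by p and 139 by size.

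Other lower genes had a wide range of roles. KLHL17, a Kelch-repeat adaptor, had levels of 9.34 and 9.35 with SP600125 and 9.82 and 9.85 in DMSO (difference -0.48, adjusted p = 0.17). SLC35B2, the Golgi transporter of the sulfate donor PAPS, read 12.12 and 12.24 with SP600125 against 12.66 and 12.64 in DMSO (-0.47, adjusted p = 0.17). MOV10, an RNA helicase tied to RNA silencing and retroelement control, read 10.06 and 10.13 against 10.68 and 10.67 (-0.58, adjusted p = 0.173). In these genes the replicates of a group lay closer together than the groups did. Genes named by p were taken only from those whose groups do not overlap. Next by p, among genes detected on all 4 arrays, came CEP250, a centrosome linker (-0.94), the snoRNA host transcript SNHG17 (-0.44), the Rab GTPase-activating protein gene SGSM3 (-0.40), and FBXO2, an F-box protein that binds glycoproteins (-0.50). After these followed TNFAIP3, the ubiquitin-editing brake on NF-kB (-0.56), the iron-sulfur assembly factor gene NUBP1 (-0.72), and LEO1 of the PAF1 elongation complex (-0.42). A second detected LEO1 probe differed by only 0.01. By size, the lower end among genes detected on all 4 arrays was CEP250, followed by RNF25, a ubiquitin ligase gene (-0.80), NUBP1, RABGGTA, a subunit of the Rab prenylation enzyme (-0.69), and CCDC88B (-0.66). CEP250 read 6.32 and 6.16 with SP600125, against 7.33 and 7.03 in DMSO, close to the dimmest levels that count as detected, which lay between 5.88 and 6.12 on these arrays.

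Among the higher genes detected on all 4 arrays C18orf32 came first by p. It had levels of 9.15 and 9.29 with SP600125 and 8.54 and 8.60 in DMSO, a difference of 0.65 (SE 0.12, adjusted p = 0.148), or 1.56 times the DMSO level, which ranks 3 by p and 93 by size. RPL26, a protein of the large ribosomal subunit, read 14.90 and 14.79 against 14.49 and 14.40 (0.40, adjusted p = 0.203). Neither gene's groups overlapped, which was a condition for naming genes by p. The next by p among genes detected on all 4 arrays were NSMF, known in neurons as a messenger from synapse to nucleus (0.45), DNAJC28, a J-domain protein (0.51), DST, a linker of the cytoskeleton (0.85), and TNRC6B, a partner of Argonaute in microRNA silencing (0.41). DNAJC28 had another probe detected on all 4 arrays, which differed by 0.16, and 1 detected on only 1 DMSO array, which differed by -0.55. The mean over its kept probes differed by 0.04. The mean over the kept DST probes differed by 0.45. After these came DYNC1LI1 of the dynein motor (0.84), CYP1B1 (0.63), the G protein subunit gene GNAZ (0.71), the ion exchanger gene SLC24A1 (0.38), the adhesion receptor gene ADGRF1 (0.55), and ASXL2, a Polycomb-associated chromatin factor (0.48). Their adjusted p was 0.203 each. Another 2 ADGRF1 probes detected on all 4 arrays differed by 0.14 and 0.18. By size the order among genes detected on all 4 arrays was CYP1A1 (0.95), NRIP3 (0.95), DST, DYNC1LI1 and EBI3, a subunit of interleukin 27 (0.73). Some of these higher genes were dim in DMSO: DST read 6.16 and 6.26, EBI3 6.23 and 6.05, and GNAZ 6.35 and 6.17. These levels are close to the dimmest that count as detected on the DMSO arrays, 5.88 and 6.01.

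**Figure D2:**
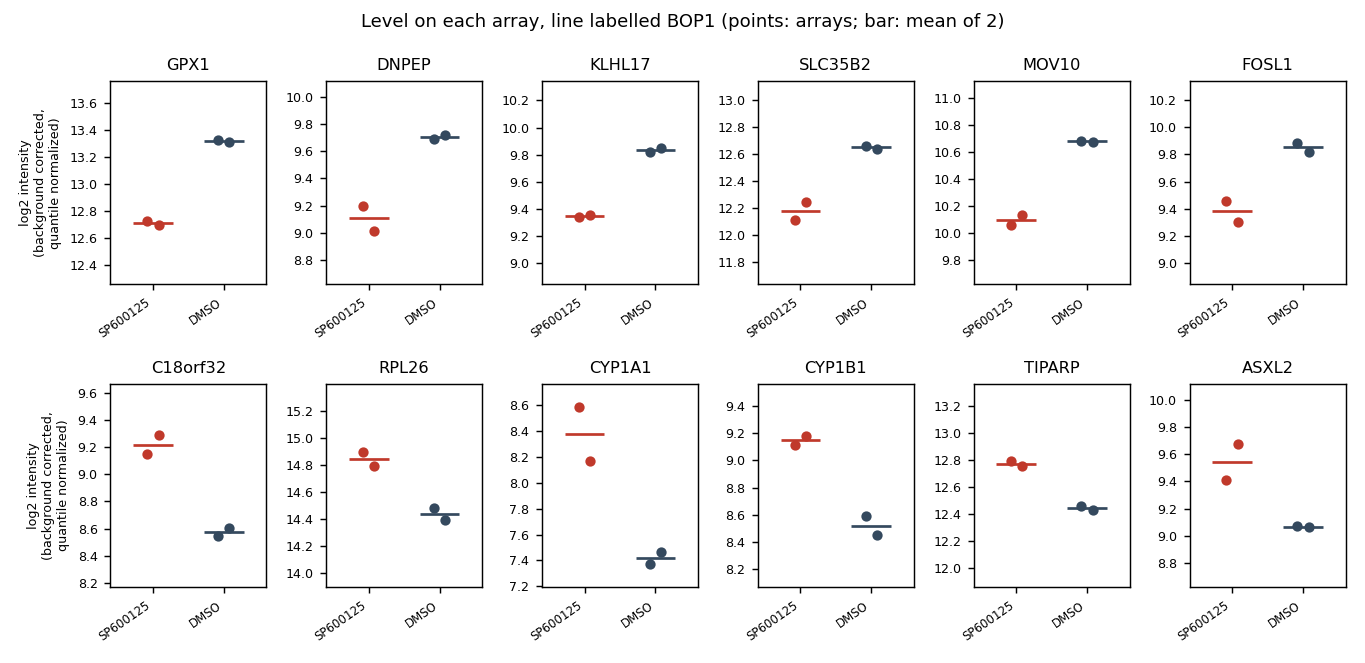
Level of 12 genes on each array (log2 intensity, background corrected and quantile normalized), with BOP1_SP600125 at the left and BOP1_DMSO at the right of each panel; points are arrays and bars the means of 2. In all 12 panels the groups do not overlap, as for 2743 genes above and 2902 below DMSO in the whole table.

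The JNK cascade itself moved little at the RNA level. Of 36 genes of the cascade 29 were tested; 0 passed the adjusted threshold, 1 was higher and 0 were lower at an unadjusted p under 0.05, and the median difference was -0.03, beside -0.0035 over all genes tested. The groups did not overlap for 4 members above (13.8%, against 22.6% of all genes) and 6 below DMSO (20.7%, against 23.9%). MAPK8, which encodes JNK1, read 8.79 and 8.68 with SP600125 against 8.66 and 8.72 in DMSO, a difference of 0.04 with a 95% interval of -0.20 to 0.28. MAPK9, which encodes JNK2, differed by -0.09 (-0.32 to 0.15), and MAP2K4, which encodes the upstream kinase MKK4, by -0.03 (-0.24 to 0.19). All 3 intervals lie within 1.5-fold in both directions, while a second probe of each gene differed by -0.07 for MAPK8, 0.06 for MAPK9 and -0.11 for MAP2K4. The member at an unadjusted p under 0.05 was MAP3K5, the stress kinase ASK1, at 8.80 and 8.67 against 8.49 and 8.39 (0.30, unadjusted p = 0.039, limma adjusted p = 0.394).

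Among AP-1 subunits, the FOS relative FOSL1 was the member with the smallest p. FOSL1, also known as Fra-1 and linked to invasion of colon cancer cells, had levels of 9.46 and 9.30 on the SP600125 arrays, against 9.88 and 9.82 on the DMSO arrays. The groups did not overlap. Its difference was -0.47 (SE 0.14, 95% interval -0.77 to -0.18, limma adjusted p = 0.232), or 0.721 times the DMSO level, and it ranks 182 by p and 406 by size. JDP2, a dimerization partner that represses AP-1, read 6.75 and 6.64 against 7.21 and 7.16 (-0.49, adjusted p = 0.313). MAFF, a small MAF protein, differed by -0.24 (adjusted p = 0.416), but another of its probes, detected on all 4 arrays, differed by 0.47. JUNB differed by -0.28 and ATF3, a stress-induced subunit, by -0.26, with all SP600125 arrays below DMSO.

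JUN, whose product is the main substrate of JNK, read 9.20 and 9.02 with SP600125 against 9.08 and 9.23 in DMSO; the groups overlapped, and the difference was -0.05 with an interval of -0.27 to 0.17. FOS (0.07), FOSB (0.18), JUND (0.21), MAFG (0.02) and BATF3 (0.05) were above DMSO in value. FOSL2 (-0.11) and ATF2 (-0.13) were below it in value, and MAF (0.26) was detected on 1 of the 2 arrays of each group. Of 19 listed subunits and partners, 14 were tested and 13 detected on all 4 arrays. None of these 14 passed the adjusted threshold in limma, and the median was -0.08. At an unadjusted p under 0.05, 0 were higher and 3 lower, beside 5.06% and 6.67% of all genes. On every array 3 lay above and 6 below DMSO. These shares are 21.4% above and 42.9% below, against 22.6% and 23.9% of all genes.

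**Figure D3:**
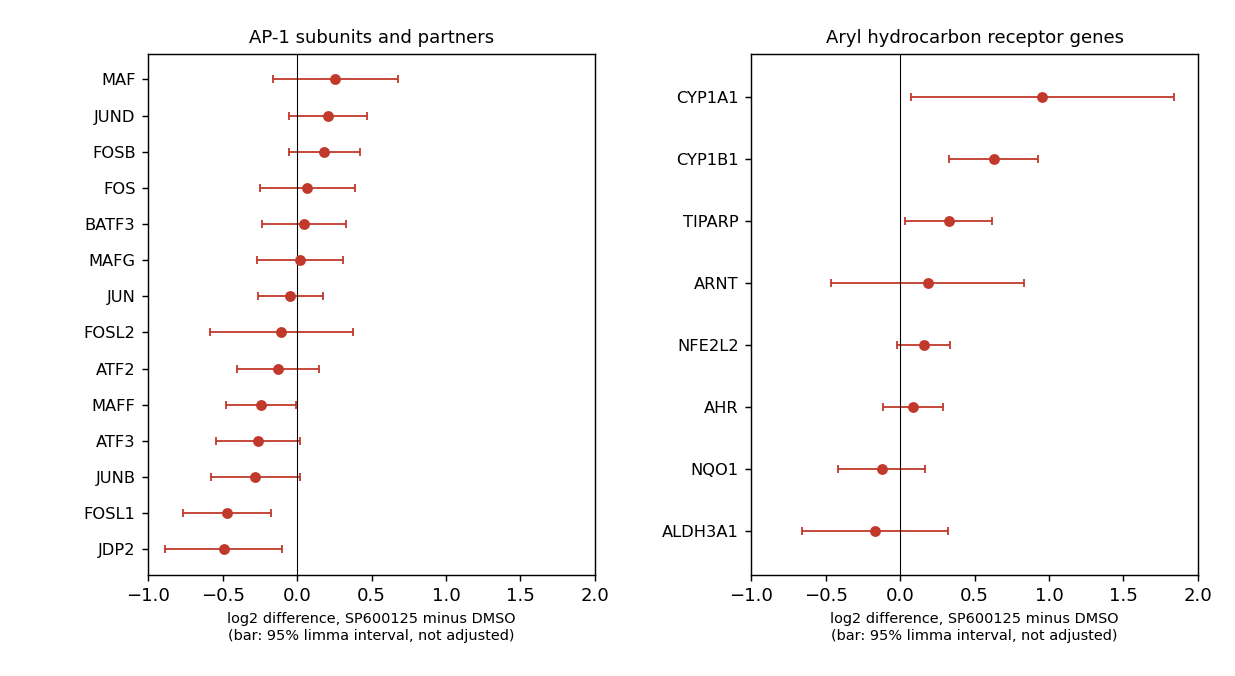
Log2 difference of BOP1_SP600125 minus BOP1_DMSO on the x axis, for the 14 tested AP-1 subunits and partners (left) and the 8 tested aryl hydrocarbon receptor genes (right), with 95% limma intervals that are not adjusted for the number of genes. The intervals of FOSL1, JDP2 and MAFF lie below 0, and those of CYP1A1, CYP1B1 and TIPARP lie above 0.

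Genes known as AP-1 targets showed small values, more of them low than high. Of 26 tested, 3 lay above and 12 below DMSO on every array (11.5% and 46.2%, against 22.6% and 23.9% of all genes). The median was -0.08, and 0 passed the adjusted threshold. The members with the smallest p were MT2A, a metallothionein that binds zinc and copper, at 14.25 and 14.18 with SP600125 against 14.54 and 14.54 in DMSO (-0.33, adjusted p = 0.252), and the angiogenic factor gene VEGFA (-0.36, adjusted p = 0.389). KRT18 (-0.27) and the chemokine gene CXCL8 (-0.30) were lower in value. PLAUR, the urokinase receptor gene, read 9.53 and 9.73 against 9.85 and 9.77 (-0.18), and TIMP1, a metalloproteinase inhibitor gene, differed by -0.17. The other 2 PLAUR probes detected on all 4 arrays differed by -0.23 and -0.58, and a second CXCL8 probe differed by -0.04. The epithelial markers KRT8 (13.66 and 13.37 against 13.92 and 13.77, difference -0.33) and EPCAM (-0.23) were lower too, though the 3 EPCAM probes differed by -0.23, 0.50 and 0.02. Of the 7 tested colon epithelium markers 2 were higher and 5 lower in value, with a median of -0.15. On every array 0 of them lay above and 3 below DMSO (42.9% below, against 23.9% of all genes). The part of cell makeup or RNA amount in these values was not tested.

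Of 17 immediate early genes, which respond within minutes to growth factors and stress, 0 were higher and 4 lower at an unadjusted p under 0.05, with a median of -0.01. Of all genes, 5.06% were higher and 6.67% lower at that threshold. On every array 3 lay above (17.6%, against 22.6% of all genes) and 5 below DMSO (29.4%, against 23.9%). The 4 at an unadjusted p under 0.05 were the TGF-beta-inducible gene KLF10 (9.60 and 9.68 against 10.19 and 10.11, -0.51), CCN1, a matricellular protein (-0.38), EGR1 (-0.32), and SRF, the serum response factor (-0.26). Their adjusted p-values were between 0.223 and 0.314. The KLF10 value rests on 1 of 3 probes detected on all 4 arrays, since the others differed by -0.02 and -0.13. The 18 genes of the ERK feedback list, most of them induced by the parallel ERK pathway, were divided: 3 were higher and 3 lower at an unadjusted p under 0.05, with a median of 0.09 and 10 above (55.6%, against 22.6% of all genes) and 4 below DMSO on every array (22.2%, against 23.9%). Higher were the ETS factor gene ETV1 (0.60, detected on 1 of 2 DMSO arrays), SPRED1 (0.24) and DUSP6 (0.24), both of which encode inhibitors of the pathway, while ETV4 (-0.33), EPHA2 (-0.28) and FOSL1 were lower. Among 14 dual-specificity phosphatases, which switch off MAP kinases, the median was 0.10. DUSP6 read 12.00 and 12.19 with SP600125 against 11.83 and 11.88 in DMSO, while a second DUSP6 probe detected on all 4 arrays differed by -0.14. DUSP2 read 8.01 and 8.00 against 8.48 and 8.41 (-0.44, adjusted p = 0.387). The lists share members, FOSL1 and DUSP6 among them.

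The aryl hydrocarbon receptor genes had the highest median of the lists with 7 or more tested genes. Of 11 listed, 8 were tested and 8 detected on all 4 arrays; 6 lay above and 2 below DMSO (75% above, against 22.6% of all genes), and the median was 0.17. The 3 members at an unadjusted p under 0.05 were all higher, beside 5.06% of all genes, and 0 passed the adjusted threshold. CYP1A1, the classical inducible enzyme that oxidizes planar aromatic compounds, read 8.58 and 8.17 with SP600125 against 7.37 and 7.46 in DMSO. Its difference of 0.95 (SE 0.42, 95% interval 0.07 to 1.84, limma adjusted p = 0.383), or 1.94 times the DMSO level, ranks 2 by size and 1120 by p. CYP1B1, its relative that acts on estrogens and polycyclic hydrocarbons, read 9.12 and 9.18 against 8.59 and 8.45 (0.63, SE 0.14, adjusted p = 0.203). TIPARP, which feeds back on the receptor, read 12.79 and 12.75 against 12.46 and 12.43 (0.33, SE 0.14, adjusted p = 0.363). In none of the 3 genes did the groups overlap.

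The receptor's own gene AHR differed by 0.09 and its DNA-binding partner ARNT by 0.18. NFE2L2, the oxidative stress factor NRF2 that shares targets with the receptor, differed by 0.16. NQO1 (-0.12) and ALDH3A1 (-0.17), detoxifying enzymes that both factors can induce, were lower in value. Of these 5 genes, AHR, ARNT and NFE2L2 lay above and NQO1 and ALDH3A1 below DMSO on every array, with 95% intervals that all include 0. A second NQO1 probe differed by 0.14.

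The promoter windows of 2 of these higher genes are shown because the receptor with ARNT binds the xenobiotic response element, whose core is GCGTG. Each runs from 250 bases before to 50 after the gene start in RefSeq, build GRCh38.p14, at chr15:74725479-74725778 on the minus strand for CYP1A1 and chr3:156674340-156674639 on the plus strand for TIPARP. Capitals mark GCGTG or, for the opposite strand, CACGC.
CYP1A1: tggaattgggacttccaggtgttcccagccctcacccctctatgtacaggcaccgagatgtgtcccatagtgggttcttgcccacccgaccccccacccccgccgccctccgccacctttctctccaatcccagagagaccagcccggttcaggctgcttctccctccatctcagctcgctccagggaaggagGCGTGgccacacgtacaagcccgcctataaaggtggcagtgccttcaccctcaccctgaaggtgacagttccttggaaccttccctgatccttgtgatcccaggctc
TIPARP: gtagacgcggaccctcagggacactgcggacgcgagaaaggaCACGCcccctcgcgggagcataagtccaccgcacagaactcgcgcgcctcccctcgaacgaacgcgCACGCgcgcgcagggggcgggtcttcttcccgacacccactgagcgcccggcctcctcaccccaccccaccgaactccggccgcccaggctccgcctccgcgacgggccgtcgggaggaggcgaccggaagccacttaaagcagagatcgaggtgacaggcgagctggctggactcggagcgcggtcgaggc
The CYP1A1 window holds 1 such core, whose first base is at -57 from the gene start, and the TIPARP window holds 2, at -208 and -142, both on the opposite strand. The core, searched on both strands, is common: 50.7% of 9701 windows of tested genes and 36.3% of 27305 windows in all hold it. A match describes these letters only. The windows of JDP2, MAFF, GPX1 and DNPEP were searched for the AP-1 site TGANTCA, where N is any base, and held 0 each. That site is in 4.54% of the windows of tested genes. No window was available for CYP1B1 or FOSL1.

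Other gene groups differed little. For selenoproteins, the family of GPX1, 18 were tested, with a median of 0.01. On every array 6 lay above (33.3%, against 22.6% of all genes) and 6 below DMSO (33.3%, against 23.9%). SELENOO (9.83 and 9.57 against 10.18 and 10.16, -0.47, adjusted p = 0.245) and SELENOM (-0.35) were lower in value, and TXNRD2, the mitochondrial thioredoxin reductase gene (0.40), and SELENOT (0.26) were higher in value. Among 17 peroxide and redox enzymes PRDX6 (-0.20) was the member at an unadjusted p under 0.05, and the median was -0.05. Of 21 aminopeptidases, DNPEP alone had an unadjusted p under 0.05, and the median was 0.02. Neither median stood far from the -0.0035 of all genes.

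Growth genes were more often low than high in value. Of 23 genes of G1/S and replication, with a median of -0.08, 1 lay above and 12 below DMSO on every array. These shares are 4.3% above and 52.2% below, against 22.6% and 23.9% of all genes. The members at an unadjusted p under 0.05 were the helicase subunit gene MCM5 (11.84 and 11.74 with SP600125 against 12.25 and 12.12 in DMSO, -0.39), the licensing factor gene CDT1 (-0.28), CHAF1A of the chromatin assembly factor (-0.29), and RRM1 of ribonucleotide reductase (-0.21), with adjusted p-values between 0.313 and 0.359. E2F1 read 7.72 and 7.67 against 8.21 and 8.01 (-0.42, unadjusted p = 0.0766), and MCM7 differed by -0.15. Of 25 G2/M and mitosis genes 3 lay above (12%, against 22.6% of all genes) and 7 below (28%, against 23.9%). They had 0 members at an unadjusted p under 0.05, a median of -0.04 and TPX2, a spindle assembly factor, at -0.32. For ribosome biogenesis, the process BOP1 acts in, 25 genes were tested, of which 1 lay above (4%, against 22.6% of all genes) and 8 below DMSO (32%, against 23.9%), with a median of -0.02. Lowest in p were NOP16 (10.90 and 10.91 against 11.20 and 11.27, -0.33), the RNA cytidine acetyltransferase gene NAT10 (-0.22), NOP14 (-0.23) and POLR1A of RNA polymerase I (-0.40). A second probe, detected on all 4 arrays, differed by -0.07 for NOP16 and by 0.24 for NOP14. Ribosomal protein genes were balanced, with 8 above and 8 below DMSO among 35 (22.9% each, against 22.6% and 23.9% of all genes). Their median was -0.01, and RPL4 (-0.27) and RPS3 (-0.27) were lowest in p.

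Genes that JNK is known to act on in cell death were divided. Of 19 tested, 6 lay above (31.6%, against 22.6% of all genes) and 9 below DMSO (47.4%, against 23.9%), with a median of -0.03. XIAP, an inhibitor of caspases, read 7.73 and 7.68 against 7.05 and 7.44 (0.46), and MCL1, a survival factor gene (-0.29), and the death receptor genes TNFRSF10A (-0.30) and TNFRSF10B (-0.21) were lower in value. A second MCL1 probe differed by 0.09, and 2 more TNFRSF10B probes by -0.17 and 0.02. Of 14 p53 targets 4 lay above (28.6%) and 5 below (35.7%), with a median of -0.12 and the cell cycle inhibitor gene CDKN1A at -0.22 on 1 probe and 0.01 on another. Of 17 genes of ATF4 and the unfolded protein response, 3 lay above (17.6%) and 8 below (47.1%), with a median of -0.08, the chaperone gene HSPA5 at 0.30 and the stress factor gene DDIT3 at -0.26. The 9 NF-kB and chemokine genes had a median of -0.17 and TNFAIP3 lowest in p. Wnt targets (14 tested, median -0.04) and cholesterol synthesis genes (16 tested, median 0.00) lay near the value of all genes. Even 3 of 11 housekeeping genes had an unadjusted p under 0.05, beside 11.7% of all genes. They were PPIA (0.40), SDHA (-0.27) and GUSB (-0.25), and a second SDHA probe differed by 0.01.

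**Figure D4:**
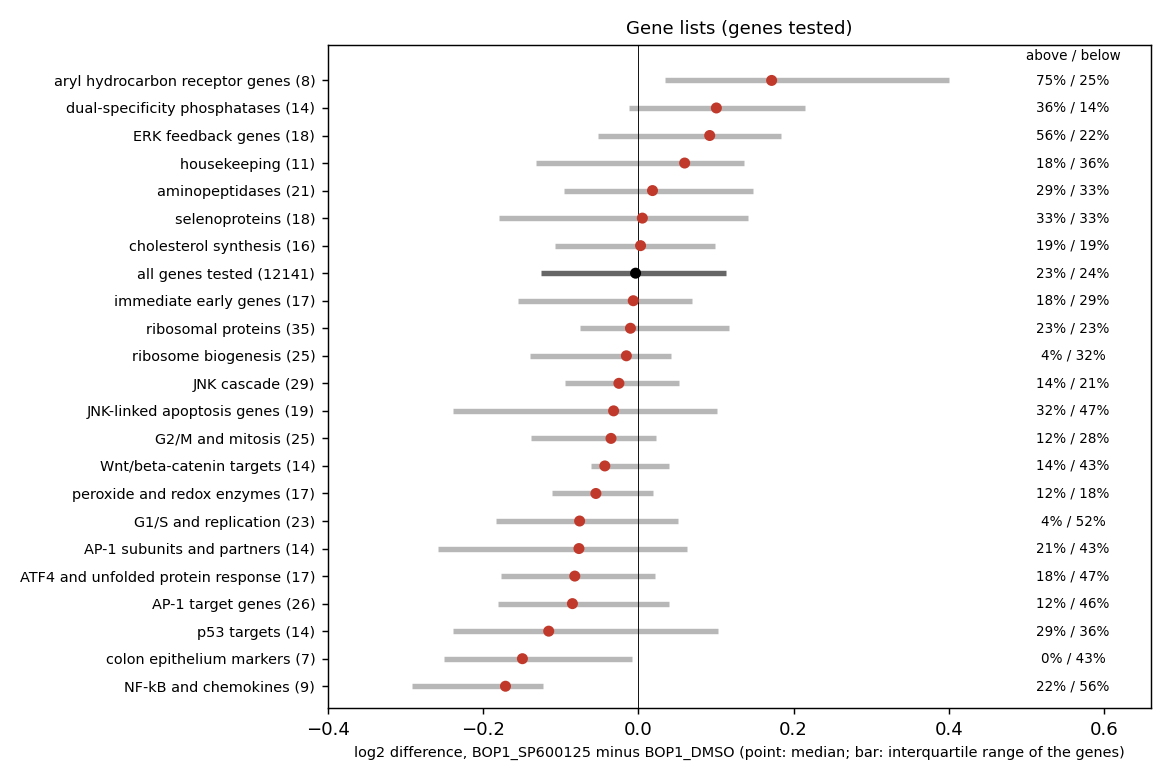
Median log2 difference (point) and interquartile range of the genes (bar) of each list with 7 or more genes tested, BOP1_SP600125 minus BOP1_DMSO; black is all 12141 genes. The percentages give the members above and below both DMSO arrays on both SP600125 arrays, beside 22.6% and 23.9% over all genes, and the medians run from -0.17 for NF-kB and chemokines to 0.17 for aryl hydrocarbon receptor genes.

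How SP600125 compared with the other inhibitors was asked in the same line, at doses that differ (33.3 nM SP600125, 667 nM DAPT, 3.3 µM LY294002). Against DMSO, DAPT gave 1 called gene (0.00824%) and LY294002 gave 2624 (21.6%), beside 0 for SP600125, and all 3 share the 2 DMSO arrays. FOSL1 differed from DMSO by -0.47 with SP600125, by -0.01 with DAPT and by 0.23 with LY294002. For GPX1 these values were -0.60, -0.36 and -0.05, and for DNPEP they were -0.60, -0.19 and -0.02. CYP1A1 stood at 0.95 with SP600125, 0.58 with DAPT and -0.73 with LY294002, a mean of 1 array above both DMSO arrays and 1 not above background. CYP1B1 stood at 0.63, 0.24 and 0.18. C18orf32 was above DMSO by a like value in all 3 treatments, with 0.65, 0.59 and 0.78. So was GNAZ, with 0.71, 0.70 and 0.85. Also above DMSO in all 3 were DST (0.85, 0.58 and 1.07), NRIP3 (0.95, 0.52 and 0.76) and SLC24A1 (0.38, 0.20 and 0.65). Not all the higher genes did this, such as ASXL2 (0.48, -0.14 and -0.01) and DYNC1LI1 (0.84, 0.73 and -0.01).

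Set directly against DAPT, without the DMSO arrays, 44 genes passed (0.362%), of which 27 (0.222%) were higher and 17 (0.14%) lower with SP600125. SLPI, a secreted protease inhibitor of epithelia, was not well above background on the SP600125 arrays (5.66 and 6.07) and read 7.13 and 7.37 with DAPT, so it was at least 2.21-fold lower with SP600125 (limma adjusted p = 0.00952). ASNS, which makes asparagine, fell to 13.01 and 12.83 with SP600125, against 13.77 and 13.61 with DAPT (-0.78, adjusted p = 0.00952). DMSO lay at 13.01 and 13.17, nearer to SP600125 than to DAPT. PHGDH, the first enzyme of serine synthesis (-0.57, adjusted p = 0.0212), and DCAF16, a substrate receptor of a ubiquitin ligase (-0.86, adjusted p = 0.00952), fell as well, and both had DAPT levels above both DMSO arrays. The antisense transcript gene SLC38A4-AS1 rose to 9.71 and 9.67 with SP600125, against 9.05 and 8.91 with DAPT (0.71, adjusted p = 0.0138); the mean over its kept probes turned its difference from DMSO to -0.20, and against DAPT it gave 0.25 (adjusted p = 0.575).

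Of the 24 genes detected on all 4 arrays and named for the smallest p against DMSO, 12 in each direction, 4 passed against DAPT too. KLHL17 read 9.34 and 9.35 with SP600125, against 9.74 and 9.90 with DAPT (-0.47, adjusted p = 0.0336), and SGSM3 fell by 0.49 (adjusted p = 0.0243). DNAJC28 (0.64, adjusted p = 0.0212) and ASXL2 (0.62, adjusted p = 0.0227) rose, the first with no call as a mean over its probes (0.10, adjusted p = 0.747). PLPPR4, detected with SP600125 but on neither DMSO array, was also called against DAPT (adjusted p = 0.0212) and was picked after its value was seen. GPX1 (-0.25, adjusted p = 0.279), DNPEP (-0.41, adjusted p = 0.0863) and FOSL1 (-0.46, adjusted p = 0.141) did not pass against DAPT. These genes were chosen on the same SP600125 arrays, so the contrast is not independent support for them. Of the lists, MT2A fell (-0.58, adjusted p = 0.0232) and DPP8, a dipeptidyl peptidase gene, rose (0.59, adjusted p = 0.0248), though not as a mean over its probes (0.44, adjusted p = 0.059).

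The count against DAPT was unstable. It was 0 when only the 4 arrays compared or the 8 arrays of the line were fitted, 25 without SP600125 replicate 1, 1 without SP600125 replicate 2, and 0 without either DAPT replicate, where the lone array was taken to vary like the other groups. With a median shift per array 18 of 46 called genes were higher.

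**Figure D5:**
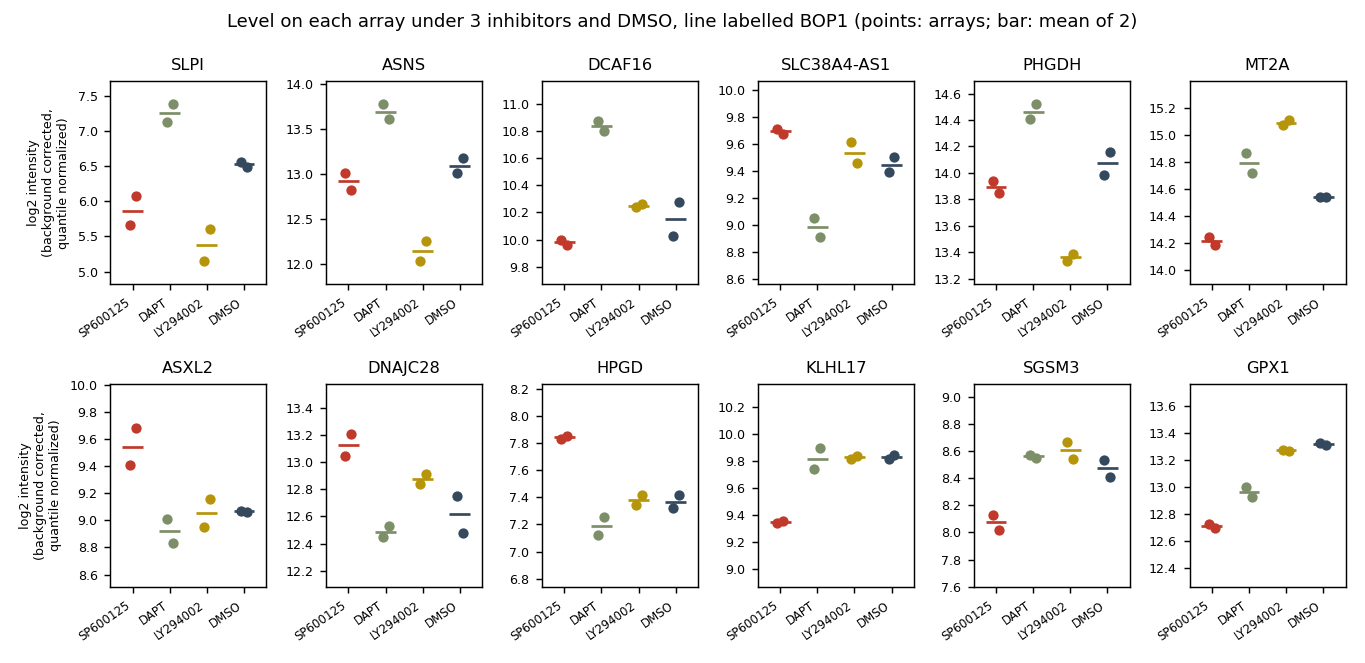
Level of 12 genes on each array of the line labelled BOP1 (log2 intensity, background corrected and quantile normalized) under SP600125, DAPT and LY294002 and in DMSO, from left to right; points are arrays and bars the means of 2. SLPI, ASNS, DCAF16 and PHGDH lie highest with DAPT, while ASXL2, HPGD and DNAJC28 lie highest and KLHL17 and SGSM3 lowest with SP600125.

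Set against LY294002, 2806 genes passed (23.1%), of which 1396 (11.5%) were higher and 1410 (11.6%) lower with SP600125. With a median shift per array the higher ones were 2060 of 2958. GPX1, DNPEP, FOSL1, CYP1A1 and CYP1B1 were chosen on the same SP600125 arrays, so this contrast is not independent support for them. GPX1 fell to 12.73 and 12.70 with SP600125, against 13.27 and 13.27 with LY294002 (-0.56, limma adjusted p = 0.00149), and DNPEP fell too (-0.58, adjusted p = 0.00119). FOSL1 read 9.46 and 9.30 with SP600125 and 10.05 and 10.12 with LY294002 (-0.70, adjusted p = 0.00213), and of its AP-1 relatives JUN (-0.76, adjusted p = 0.000146), JUNB (-0.71, adjusted p = 0.00231) and MAFF (-1.07, adjusted p = 2.12e-05) fell as well. Of the 14 AP-1 members 1 rose and 6 fell in this contrast. JUN stood at -0.05 against DMSO with SP600125 and at 0.71 with LY294002. CYP1A1 (1.68, adjusted p = 0.0088) and CYP1B1 (0.45, adjusted p = 0.0298) were called as higher, but both calls turn on single arrays. CYP1A1 was detected on 1 of 2 LY294002 arrays, at 7.69, and not well above background on the other, at 5.69. Without that second array CYP1A1 differed by 0.68 (adjusted p = 0.117) and CYP1B1 by 0.25 (adjusted p = 0.278), and without SP600125 replicate 1 the values were 1.47 (adjusted p = 0.0648) and 0.48 (adjusted p = 0.0772). Without SP600125 replicate 2 CYP1B1 differed by 0.42 (adjusted p = 0.146).

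The smallest p-values against LY294002 belonged to genes that with SP600125 lay nearer to DMSO than to LY294002. LONRF2, a ring finger gene, rose to 8.73 and 8.75 with SP600125, against 6.83 and 6.62 with LY294002 (2.01, adjusted p = 8.82e-08). Lower were the histone gene H4C14 (-1.62), the metallothionein gene MT1G (-1.33) and CNFN, a cornified envelope gene (-1.39). In DMSO these 4 genes read between 0.10 and 0.30 from their SP600125 level. The count was 938 with only the 4 arrays compared, 1327 without SP600125 replicate 2 and 1664 without LY294002 replicate 1.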

How the data were processed

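Gene expression was measured on 24 Illumina bead arrays. The authors deposited for each array a raw intensity per probe and a detection p-value, per the file headers, and a processed table that by its values is a quantile-normalized intensity without background correction. GenomeStudio 2010.1 and Partek appear in the submitters' processing notes, with no role stated. From the deposited intensity, limma 3.58.1 (R 4.3.3) applied neqc with an offset of 16. Of 47323 probes, 30113 had 1 gene symbol, 8 several and 17202 none; 21608 were detected (p under 0.01) on at least 2 arrays, and the brightest kept probe stood for each of 12141 genes. A probe was called not well above background where its detection p was 0.01 or more; for a group with none detected, its level in an at-least fold is the higher of its own and the dimmest detected level. One limma model (lmFit, eBayes) with 12 groups on 24 arrays (12 residual degrees of freedom, prior 4.44) gave contrasts with Benjamini-Hochberg adjustment over all genes at 0.05. "Rose" and "fell" mean past it. Ranks run over all 12141 genes, with 1 the smallest p or the largest size.

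Named were GPX1, DNPEP and FOSL1, the 12 smallest p-values in each direction and the 5 largest differences in each direction among genes detected on all 4 arrays, every tested AP-1 member, no more than 4 members, lowest in p, of every other list, and the 4 smallest p-values against DAPT and against LY294002; MAPK8, MAPK9, MAP2K4, PLAUR, TIMP1, E2F1, MCM7, ETV4, SPRED1, SELENOT, PHGDH, MT2A and DPP8 against DAPT, HPGD, PTGER2, PLPPR4, MT1G against DAPT and ZNF264 were added after their values were seen. The genes named for the 12 smallest p-values in each direction were also limited to genes whose 2 groups do not overlap. Members and lists were chosen with earlier results of these data known. The replicate numbers of the SP600125 and DMSO arrays showed no pairing (their deviations correlated at -0.02), so no block was used. Over all pairs of groups this correlation ran from -0.10 to 0.29. The number of arrays, 2 per group, limits the precision. The model was checked on simulated data. Plots used Python 3.11.15 and matplotlib 3.10.9.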

Additional observations from a re-analysis of the deposited data

How the results depend on the processing

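The count of 0 genes called against DMSO became 5 without background correction and 5 with the deposited processed values (GPX1, DNPEP, ZNF264, C18orf32 and MOV10), 20 with an intensity trend in the variance and 4 with array weights (GPX1, DNPEP, MOV10 and C18orf32). It was 0 with the median shift, offset 50, either other detection filter, means over probes and smaller fits, and between 0 and 0 without each array in turn, where 897 to 1105 genes had an unadjusted p under 0.05. Against DAPT, 44 became 158 without background correction, 157 with the processed values, 88 with offset 50, 24 without a detection filter, 80 with detection on all 4 arrays, 71 with means over probes, 0 with only the 4 arrays compared, 0 with the 8 arrays of the line, 232 with the trend, 241 with array weights, and 0 to 25 without 1 array. Against LY294002, 2806 became 938 with only the 4 arrays compared and 1327 to 2132 without 1 array. The replicate block gave 0 (smallest adjusted p 0.156), 43 and 2744 genes and changed no call in number by over 1.5 times. Of 1931 alternative values of 121 genes against DMSO, 1889 kept sign and side of the threshold, 27 passed it and 15 changed sign. With means over probes these were MAFF at 0.11, NQO1 at 0.0099, NOP14 at 0.0030, EPCAM at 0.097, MAPK8 at -0.017 and SLC38A4-AS1 at -0.20, and with the median shift MAFG at -0.033. Without 1 array in turn, JUN ran from -0.14 to 0.046, FOSL2 from -0.30 to 0.088, MAFG from -0.061 to 0.099, MAPK8 from -0.015 to 0.094, MAP2K4 from -0.21 to 0.15 and BOP1 from -0.11 to 0.067. The cause was not tested. Of 416 list medians, 38 moved by more than the replicate spread. With 2 arrays a group, the median 95% interval reached 0.27 to either side. Differences smaller than that mostly did not reach an unadjusted p of 0.05. At the adjusted threshold larger differences went uncalled too, such as GPX1 at -0.60 (limma adjusted p = 0.148).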

Other observations

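HPGD and PTGER2 were picked after their values were seen, from the 0.362% of all genes that passed against DAPT. HPGD, the enzyme that breaks down prostaglandin E2, read 7.83 and 7.85 with SP600125, against 7.12 and 7.26 with DAPT (difference 0.65, limma adjusted p = 0.0232), 7.34 and 7.42 with LY294002 (0.46, adjusted p = 0.0103) and 7.32 and 7.41 in DMSO (0.47, adjusted p = 0.203). PTGER2, a prostaglandin E2 receptor gene, was detected on both SP600125 arrays (6.37 and 6.18) and on neither DAPT array, and was at least 1.25-fold higher with SP600125 (adjusted p = 0.0263). It was not well above background in DMSO either, where the bound was at least 1.26-fold (adjusted p = 0.223). The metallothionein genes MT1G (-0.53, adjusted p = 0.0263) and MT2A (-0.58, adjusted p = 0.0232) fell against DAPT, and against LY294002 they fell by 1.33 and 0.87 on the log2 scale. Set against DMSO, MT1G differed by -0.10 with SP600125, by 0.43 with DAPT and by 1.23 with LY294002. For MT2A these values were -0.33, 0.25 and 0.55. The calls of HPGD, PTGER2, MT1G and MT2A against DAPT were each lost without either DAPT array and without either SP600125 array. They were also lost when only the 4 arrays compared or the 8 arrays of the line were fitted. PTGER2 was not called without background correction (limma adjusted p = 0.0566) or with an intensity trend in the variance (limma adjusted p = 0.107). The call of HPGD against LY294002 was lost without LY294002 replicate 1 (adjusted p = 0.0673) and without SP600125 replicate 2 (adjusted p = 0.0628).

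Detection differed between the groups. Both SP600125 arrays and neither DMSO array detected 27 genes, while both DMSO arrays and neither SP600125 array detected 125. The DMSO arrays also had more probes detected in all, 19666 and 19068, against 18661 and 18584 with SP600125, and the part of this in the 125 genes was not tested.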
